A study of Mus musculus with 357 samples.

Results

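Ezh1, Cbx6 and Cbx7 are the 3 Polycomb genes among 96 assays that were read by quantitative PCR in single mouse hematopoietic stem cells (HSCs), and they were followed by name across all 357 cells. The mice were Col1a1-tetO-H2B-mCherry and gave bone marrow cells in which a red fluorescent histone is switched on and then diluted by cell division. Cells isolated 5 weeks after labelling filled a pair of plates, with 91 cells on 5-week plate 1 and 83 cells on 5-week plate 2. Cells isolated 2 weeks after labelling filled another pair, with 90 cells on 2-week plate 1 and 93 cells on 2-week plate 2. Every cell of both groups carried this transgene and was sorted as Lin-Sca1+c-kit+CD48-CD150+. The labels give neither the age, strain and sex of the mice, nor the transactivator that drives the tetO promoter, nor how many animals were used or pooled.

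Polycomb proteins keep genes silent through 2 kinds of complex. Polycomb repressive complex 2 methylates histone H3, and Ezh1 encodes one of its alternative catalytic subunits, the other being encoded by Ezh2. Polycomb repressive complex 1 reads that mark through a chromodomain protein of the CBX family, to which Cbx6 and Cbx7 belong, and it ubiquitinates histone H2A. In the mouse, Ezh1 and Cbx7 are both known for a part in HSC maintenance, and the Cdkn2a locus, which encodes cell cycle inhibitors, is the best known Polycomb target in these cells.

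The question was in how many stem cells each gene gave a product, how much product there was, and whether the 3 varied together from cell to cell. The region around each start site (RefSeq, GRCm38.p6, minus strand in each case) is shown because the comparisons below turn on whether these 3 genes moved together, with every CG dinucleotide in capitals. The windows are chr11:101226414-101226713 for Ezh1, chr15:79834284-79834583 for Cbx6 and chr15:79932597-79932896 for Cbx7.
Ezh1: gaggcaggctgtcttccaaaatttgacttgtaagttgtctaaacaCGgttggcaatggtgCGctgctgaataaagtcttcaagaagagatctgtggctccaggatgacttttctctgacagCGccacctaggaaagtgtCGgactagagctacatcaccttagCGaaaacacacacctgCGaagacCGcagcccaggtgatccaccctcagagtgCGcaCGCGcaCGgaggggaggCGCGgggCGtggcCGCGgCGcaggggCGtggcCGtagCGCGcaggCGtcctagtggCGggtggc
Cbx6: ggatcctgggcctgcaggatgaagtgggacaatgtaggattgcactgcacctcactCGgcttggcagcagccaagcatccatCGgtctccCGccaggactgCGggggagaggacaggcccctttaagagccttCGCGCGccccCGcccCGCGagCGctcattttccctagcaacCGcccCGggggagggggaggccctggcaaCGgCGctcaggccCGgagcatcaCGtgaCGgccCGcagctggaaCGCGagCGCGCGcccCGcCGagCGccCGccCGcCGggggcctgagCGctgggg
Cbx7: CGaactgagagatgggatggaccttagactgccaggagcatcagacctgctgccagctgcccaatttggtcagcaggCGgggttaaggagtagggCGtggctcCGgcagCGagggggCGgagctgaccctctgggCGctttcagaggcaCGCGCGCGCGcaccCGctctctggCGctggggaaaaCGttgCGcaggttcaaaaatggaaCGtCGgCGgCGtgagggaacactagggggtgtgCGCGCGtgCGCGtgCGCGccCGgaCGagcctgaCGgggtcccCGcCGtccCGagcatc
They hold 23, 31 and 33 CG dinucleotides in 300 bases, for Ezh1, Cbx6 and Cbx7 in that order, against a median of 7 over 32851 mouse promoter windows. Fewer were present in 78.5, 89.4 and 91.4% of those windows. In the same windows 3 motifs were searched on both strands. The GC box GGGCGG matched 3 times in Cbx6, 1 time in Cbx7 and 0 times in Ezh1, and 35.7% of all windows hold it. The E-box CACGTG matched 1 time, in Cbx6 (7.15% of all windows). The cyclic AMP response element core TGACG matched 1 time each in Cbx6 and Cbx7 (20.8% of all windows), and in Cbx6 it shares 2 bases with the E-box. Cbx6 and Cbx7 are neighbours on mouse chromosome 15, with 1 protein-coding gene, Apobec3, annotated between them, while Ezh1 lies on chromosome 11.

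No animal is named for any cell. A chase time was therefore treated as a single sample, and the times were compared without a test. In what follows, plates are apart where the lower 5-week plate exceeds the higher 2-week plate (upward) or the higher 5-week plate is under the lower 2-week plate (downward). Each plate held 1 chase time, so plate and chase time cannot be told apart. A product was counted as detected when its threshold cycle (Ct), the cycle at which its fluorescence passes a threshold, was 25 or below. A Ct lower by 1 stands for about 1 doubling more template. Cells had a product in 58.8 ± 5.71 assays (SD over cells) at 5 weeks and in 54.6 ± 5.36 at 2 weeks, and the mean Ct of the 14 reference assays was 12.96 ± 0.65 at 5 weeks and 13.45 ± 0.53 at 2 weeks. These 2 quantities moved with chase time and their part in the results was tested only where a covariate is named. Of the HSC markers measured, Kit, Hlf and Meis1 were each detected in 99.2 to 99.4% of all cells, Mllt3 in 95.2% and Fgd5 in 46.5%. TEK was found in 64.9% at 5 weeks and 47% at 2 weeks, apart upward. Ly6a, which encodes Sca1, was detected in 73% at 5 weeks and 91.3% at 2 weeks, and Slamf1, the gene of the sorted antigen CD150, in 55.7% at 5 weeks and 72.1% at 2 weeks, both apart downward. Cd48 was found in 1.40% of cells, and the B cell factor Ebf1 in 0 of 357, which allows a share of up to 0.84%. Cd48 and the measured markers of other lineages made 7 genes, of which cells had between 0.76 and 1.04 on average on the 4 plates. Most often these were Itga2b (51.1% at 5 weeks and 39.9% at 2 weeks) and Epor (29.9% at 5 weeks and 21.3% at 2 weeks), both apart upward. The myeloid receptor gene Csf1r was at 2.30% at 5 weeks and 14.8% at 2 weeks, apart downward. The part of these markers in the results was not tested. One cell of 5-week plate 2 had only 27 assays with a product and no product of any of the 3 genes; the next lowest cell had 39.

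Ezh1 was found in about 3 of 4 stem cells and in more of them at the later time. Ezh1 product was present in 78% of cells of 5-week plate 1 and 77.1% of 5-week plate 2, against 70.0% of 2-week plate 1 and 64.5% of 2-week plate 2. The 5-week plates lay within 1 point of each other and above both 2-week plates, although the intervals of neighbouring plates in this order overlapped. Pooled, the share was 77.6% at 5 weeks (exact 95% interval 70.7 to 83.5%) and 67.2% at 2 weeks (59.9 to 74%). The difference was 10.4 points (Newcombe 95% interval 1.08 to 19.4, counting error only), the 21st largest gain of 96 assays. Plates were apart upward for 42.7% of all 96 assays and downward for 7.29%, and the median difference over them was 2.85 points, so a gain with plates apart was common in this table. Adjusted for how many other assays the cell had detected, the Ezh1 difference was 6.22 points, and adjusted for reference Ct it was 9.09 points.

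The 2-week share of Ezh1 was uneven within a plate. On 2-week plate 1 it was detected in 85.1% of the 47 cells in well rows A to D and in 53.5% of the 43 cells in rows E to H, while the cells of both sets of rows had 55.5 detected assays on average. On the other 3 plates these sets of rows differed by 1.39 to 4.88 points. Of 384 such gaps (96 assays on 4 plates), 1 other was as large, that of Runx1t1 on 5-week plate 2, and the median gap was 4.16 points. The 384 include assays found in nearly all or nearly no cells, which cannot show a gap of this size, so they overstate how rare it was. Without rows E to H of 2-week plate 1, a setting chosen after seeing the data, the Ezh1 difference was 6.16 points and the plates overlapped.

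Cbx6 was found in nearly every stem cell at both times. Cbx6 product was present in 97.8% of cells of 5-week plate 1 and 95.2% of 5-week plate 2, against 98.9% of 2-week plate 1 and 92.5% of 2-week plate 2. The plates of the 2 times interleaved. The pooled shares were 96.6% at 5 weeks (92.6 to 98.7%) and 95.6% at 2 weeks (91.6 to 98.1%), a difference of 0.92 points (-3.50 to 5.35). That difference was between -2.34 points (without 2-week plate 2) and 4.08 points (without 2-week plate 1) when a plate was left out, and -0.45 without 5-week plate 1, so its direction was not settled. Its share over all cells, 96.1%, put it at rank 19 of 96 assays, next to the transcription factor genes Lyl1 (96.6%) and Fli1 (95.8%).

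Cbx7 was found in about 3 of 5 stem cells, and 1 plate carried its difference between the times. Cbx7 product was present in 59.3% of cells of 5-week plate 1 and 72.3% of 5-week plate 2, against 60.0% of 2-week plate 1 and 58.1% of 2-week plate 2. The lower 5-week plate lay between the 2-week plates, so the times overlapped. The pooled shares were 65.5% at 5 weeks (57.9 to 72.5%) and 59% at 2 weeks (51.5 to 66.2%), a difference of 6.50 points (-3.54 to 16.3). It was 0.32 points without 5-week plate 2 and 13.3 points without 5-week plate 1, and 1.96 points adjusted for how many other assays the cell had detected. Counting only products at Ct 20 or below, it was 3.0 points. Pooled over the times, all 3 shares were higher in cells with more other assays detected. Between the third of each plate's cells with the most other assays detected and the third with the fewest, the shares were 79.2 and 65.3% for Ezh1, 68.3 and 55.9% for Cbx7, and 98.3 and 93.2% for Cbx6. At 2 weeks, however, the cells with the most and those with the fewest were both at 96.7% for Cbx6. Ranked by reference Ct, the third with the most cDNA was not always the higher. The third with the most and the third with the least were at 67.2 and 68.9% for Ezh1 at 2 weeks, 96.7 and 98.4% for Cbx6 at 2 weeks, and 67.8 and 70.2% for Cbx7 at 5 weeks.

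**Figure D1:**
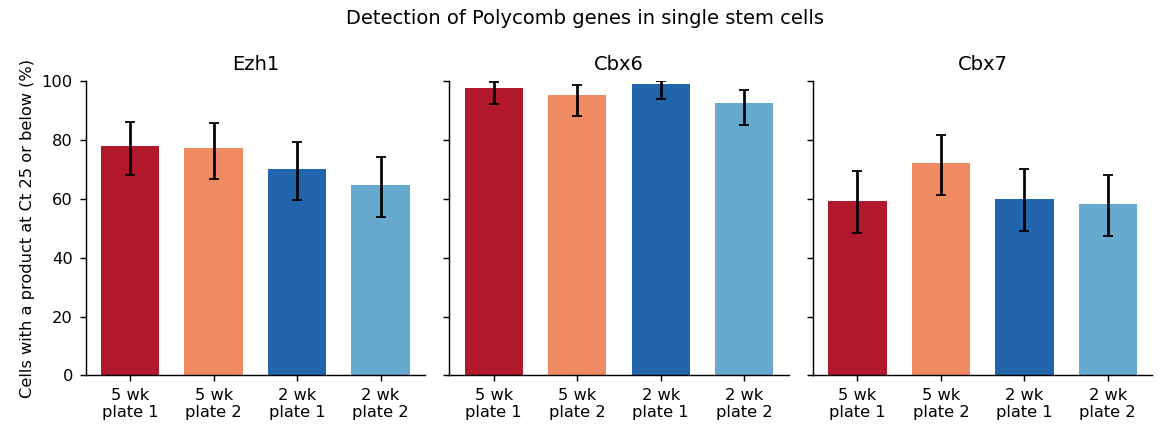
Share of cells (%) with a product of Ezh1, Cbx6 or Cbx7 at Ct 25 or below on each plate; bars are plate shares and lines are exact 95% intervals that cover counting error only. Both 5-week plates of Ezh1 (78 and 77.1%) lie above both 2-week plates (70.0 and 64.5%), whereas the plates of Cbx6 and Cbx7 overlap between the times.

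Most products of the 3 genes fell within a few cycles, and those of Ezh1 had a sharp late edge. Of 258 Ezh1 products 89.5% had a Ct above 14 and up to 17, as did 75.5% of 343 Cbx6 products and 86% of 222 Cbx7 products. Just 3 Ezh1 products lay between Ct 17 and 18, after 93 between 16 and 17, and 11 were later than 18. Cbx6 products thinned out more gradually, with 48 between Ct 16 and 17, 15 between 17 and 18 and 9 between 18 and 19. Cbx7 products also fell off steeply, with 92, 16 and 2 in the same steps. Whether other assays had such an edge was not examined. Products later than 18 made up 4.26% of those of Ezh1, 3.50% of Cbx6 and 6.31% of Cbx7. The median Ct of Ezh1 was 15.1 and 15.5 on the 5-week plates and 16.1 and 15.5 on the 2-week plates. For Cbx6 it was 14.6 and 14.8 on the 5-week plates, both earlier than 15.3 and 15.6 on the 2-week plates. For Cbx7 it was 15.8 and 16.1 on the 5-week plates, also both earlier than 16.4 and 16.2 on the 2-week plates.

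**Figure D2:**
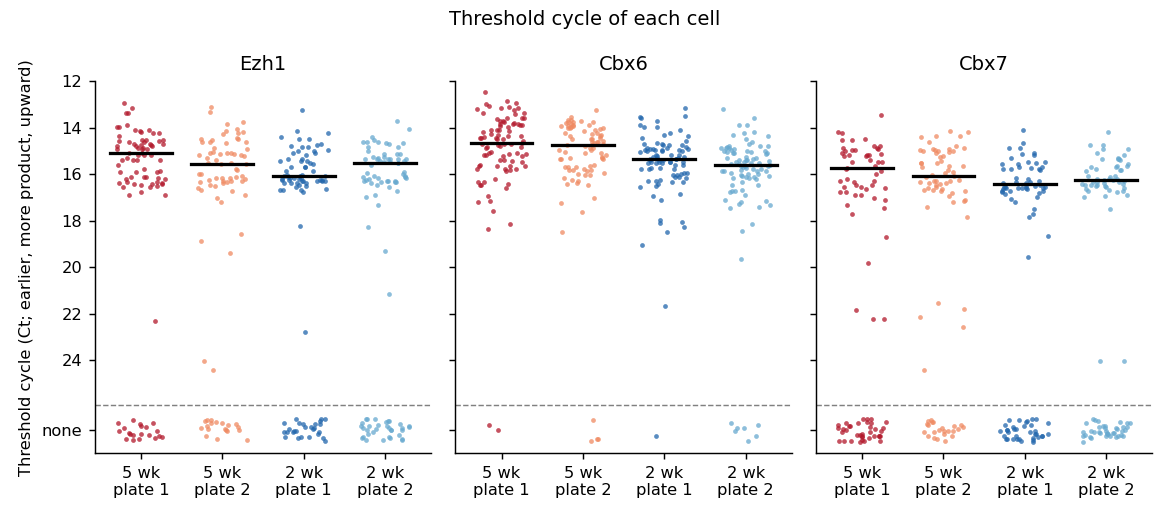
Ct of every cell for the 3 genes on each plate, with early cycles (more product) at the top, the median of the detecting cells as a black line, and cells with no product or one later than Ct 25 in the row marked none. Most points lie between Ct 14 and 17, a few lie later than 18, and the Cbx6 medians of 14.6 and 14.8 on the 5-week plates are above those of 15.3 and 15.6 on the 2-week plates.

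More cells had an early product of each gene at 5 weeks, and this held for most assays. The earliest 25% of Cbx6 products over all cells, those at Ct 14.4 or below, made up 39.3% of products at 5 weeks and 11.4% at 2 weeks. By plate they were 42.7 and 35.4% at 5 weeks, against 13.5 and 9.30% at 2 weeks. For Ezh1 these shares were 34.1% at 5 weeks and 15.4% at 2 weeks, and for Cbx7 they were 35.1% at 5 weeks and 14.8% at 2 weeks. The plates of both genes were apart upward. The same measure was higher on both 5-week plates for 68.8% of 80 assays and lower on both for 3.75%, with a median difference of 17.7 points, so the Ezh1 and Cbx7 differences of 18.6 and 20.3 points were near that of the table as a whole. Cbx6 differed by 27.9 points. After the reference Ct of each cell was subtracted, the earliest 25% of Cbx6 products still made up 31.5% at 5 weeks and 18.9% at 2 weeks, and the plates were apart (as for 27.5% of assays, upward, on this scale). On the same scale the earliest products made up 27.2% at 5 weeks and 23.1% at 2 weeks for Cbx7, with plates overlapping, and 23% at 5 weeks and 27.6% at 2 weeks for Ezh1, with plates apart downward (26.2% of assays).

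The level of a gene in its detecting cells was taken as the gene's Ct subtracted from the cell's mean reference Ct, in log2 units. Levels of different assays cannot be compared with each other. The Cbx6 level was -1.94 ± 1.10 and -1.93 ± 1.01 (SD over 89 and 79 cells) on the 5-week plates, against -2.05 ± 1.28 and -2.26 ± 1.04 (89 and 86 cells) on the 2-week plates. Both 5-week plates were thus the higher, by 0.21 in the pooled cells, a difference well within the spread between cells. Plates were apart upward in level for 30.0% of 80 assays. The Cbx6 difference kept its sign under the 3 other scalings, at 0.74 without centring, 0.60 with centring on Actb and Gapdh and 0.35 relative to the median over assays (-0.13). It was 0.11 without 2-week plate 2, and at Ct 18 or below it was 0.10 with plates overlapping.

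The levels of the other 2 genes had no settled direction. The Ezh1 level was -2.51 ± 1.28 and -2.80 ± 1.95 on the 5-week plates, against -2.38 ± 1.23 and -2.36 ± 1.29 on the 2-week plates. Its difference of -0.28 had plates apart downward, as had 43.8% of assays, but it turned to 0.27 without centring and to 0.14 with centring on Actb and Gapdh, with plates overlapping in both. It was -0.43 without 5-week plate 1 and -0.14 without 5-week plate 2. The Cbx7 level was -3.39 ± 1.88 and -3.30 ± 2.09 on the 5-week plates, against -2.84 ± 1.10 and -2.99 ± 1.69 on the 2-week plates. Its difference of -0.42 was also apart downward, and it was 0.013 without centring, -0.032 with centring on Actb and Gapdh, and -0.12 when products later than Ct 20 were left out. There were 8 such Cbx7 products at 5 weeks and 2 at 2 weeks.

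**Figure D3:**
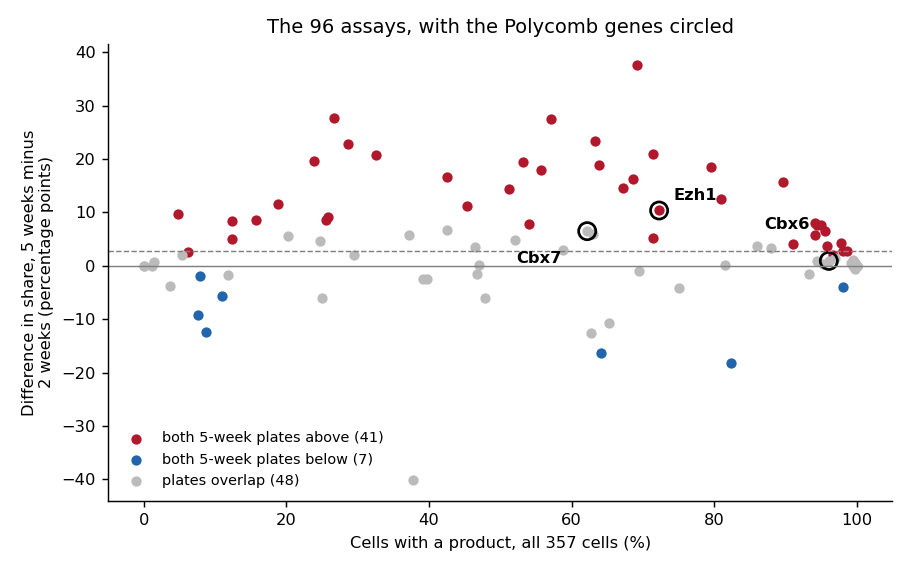
Difference in detection share (5 weeks minus 2 weeks, percentage points) of the 96 assays against their share over all 357 cells (%), coloured by whether the plates were apart; the dashed line is the median of 2.85 points. The circled Ezh1 lies among the 41 assays with both 5-week plates above, at 10.4 points, while Cbx7 (6.50) and Cbx6 (0.92) are among the 48 that overlap.

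Products of all 3 genes were found in 43.7% of the stem cells, with the larger share at the later time. They occurred together in 45.1% of cells of 5-week plate 1 and 54.2% of 5-week plate 2, against 40% of 2-week plate 1 and 36.6% of 2-week plate 2, with both 5-week plates above. Pooled, this was 86 cells at 5 weeks (49.4%, interval 41.8 to 57.1%) and 70 cells at 2 weeks (38.3%, 31.2 to 45.7%). The pooled share of each gene alone was also larger at 5 weeks, but plates were apart for Ezh1 only. The share that the 3 separate shares would give together was not computed, so the gain in cells with all 3 is not shown to be more than theirs. Cbx6 was the only member detected in 12 cells at 5 weeks (6.90%) and in 27 cells at 2 weeks (14.8%). Ezh1 with Cbx6 but without Cbx7 occurred in 45 cells at 5 weeks and 46 at 2 weeks. Cbx6 with Cbx7 but without Ezh1 occurred in 25 cells at 5 weeks and 32 at 2 weeks. Of the 14 cells without Cbx6, 4 had Ezh1 alone, 2 had Cbx7 alone, 7 had both and 1 had no product of the 3.

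The number of cells with products of a pair was close to what the separate plate shares, multiplied and summed over the 4 plates, gave. For the pairs with Cbx6 this was nearly fixed in advance, since just 14 cells lacked Cbx6, and only Ezh1 with Cbx7 left room for a departure. For Ezh1 and Cbx7 it exceeded that number by 1.96 cells. Ezh1 and Cbx6 were found together in 247 cells, where that product gave 248.1, and Cbx6 and Cbx7 in 213, where it gave 213.3. The ratio of found to computed cells was 1.01 for Ezh1 and Cbx7 (interval 0.896 to 1.13), and it lay between 0.973 and 1.09 for all pairs on single plates. Among cells with Ezh1, 63.2% also had Cbx7, against 59.6% of the cells without Ezh1.

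The amounts of Ezh1 and Cbx6 product were related at 5 weeks but hardly at 2 weeks when all cells of a plate were taken. Across all cells of a plate, with undetected reactions at the limit, Spearman's rho of Ezh1 with Cbx6 was 0.35 (91 cells) and 0.23 (83 cells) on the 5-week plates and 0.03 (90 cells) and -0.02 (93 cells) on the 2-week plates. Pearson's r was 0.07 and 0.22 on the 5-week plates and -0.03 and -0.05 on the 2-week plates, so on 5-week plate 1 the relation lay in the ranks. For Cbx6 with Cbx7 rho was 0.27 and 0.17 on the 5-week plates and 0.04 and 0.16 on the 2-week plates. For Ezh1 with Cbx7 it was 0.20 and 0.07 on the 5-week plates and -0.06 and 0.12 on the 2-week plates, which overlapped. A higher rho on both 5-week plates was found for 26.2% of 3240 assay pairs. A rho above 0 on all 4 plates, as for Cbx6 with Cbx7, was found for 40.5% of pairs, and one below 0 on all 4 for 6.08%. With the reference Ct and the number of other detected assays of each cell removed from the ranks, Ezh1 with Cbx6 was at 0.23 and 0.20 on the 5-week plates and -0.03 and -0.05 on the 2-week plates, and such a difference was found for 19.1% of pairs. Without the cell of 27 assays, the rho of 5-week plate 2 was 0.21. Among cells with both products it was 0.47 (69 cells) and 0.18 (62 cells) on the 5-week plates and 0.18 (62 cells) and -0.06 (54 cells) on the 2-week plates, where the times met. In the same cells the levels, which both hold the cell's reference Ct, gave a rho above 0 on every plate. It was 0.41 and 0.22 on the 5-week plates and 0.17 and 0.13 on the 2-week plates. These correlations are weak, they are over cells that share a plate, and they carry no test.

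**Figure D4:**
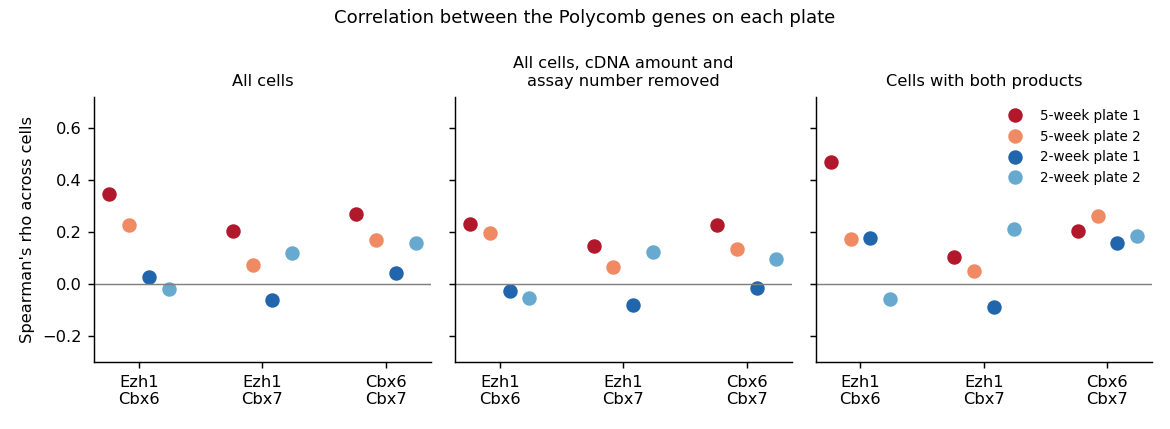
Spearman's rho across the cells of each plate for the 3 gene pairs, over all cells (left), with reference Ct and number of other detected assays removed (middle), and over cells with both products (right). For Ezh1 with Cbx6 the 5-week plates (0.35 and 0.23) lie above the 2-week plates (0.03 and -0.02) on the left, and the right panel shows 5-week plate 1 alone at 0.47.

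The 3 genes most like each member across cells were not the same, but most of those of Ezh1 and Cbx7 also varied with Cbx6. The genes were taken by the correlation on the weakest of the 4 plates among 81 assays. Ezh1 was most like Mllt3, a gene of HSC self-renewal, with rho of 0.34 and 0.17 on the 5-week plates and 0.21 and 0.43 on the 2-week plates (Pearson's r 0.06 to 0.31). Next were Nfat5 (0.13 to 0.25), which encodes a transcription factor of the osmotic stress response, and vwf (0.12 to 0.29), which encodes von Willebrand factor and marks HSCs with platelet bias. These were not particular to Ezh1. With Cbx6, Nfat5 was at 0.16 to 0.41 and vwf at 0.15 to 0.25, both higher on the weakest plate than with Ezh1. Mllt3 was at 0.11 to 0.29 with Cbx6, lower on the weakest plate. Among 5-week cells vwf was detected in 53.3% of those with Ezh1 and 43.6% of those without it, and among 2-week cells in 39% of those with Ezh1 and 25% of those without it. Detection of Mllt3 did not run the same way at both times, at 94.8% of cells with Ezh1 and 97.4% without it at 5 weeks, and 96.7% with and 91.7% without it at 2 weeks. With reference Ct and assay number removed, the 3 closest were Mllt3 (0.15 to 0.40), Slamf1 (0.10 to 0.17) and the homeobox gene Hhex (0.08 to 0.26). Hhex was detected in 91.1% of cells with Ezh1 and 97.4% without it at 5 weeks, and in 95.1% with and 91.7% without it at 2 weeks.

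Cbx6 was most like Ccnd2, which encodes cyclin D2 (0.28 to 0.38), Rbl2, which encodes the pocket protein p130 of quiescent cells (0.26 to 0.30), and the transglutaminase gene Tgm2 (0.23 to 0.49). With reference Ct and assay number removed, Ccnd2 was between -0.0039 and 0.33 and Tgm2 between 0.02 and 0.29. The closest genes were then Cdkn1c, which encodes the cell cycle inhibitor p57 (0.19 to 0.36), Rbl2 (0.15 to 0.26) and ndn, which encodes the growth suppressor necdin (0.12 to 0.23). Cbx7 had the weakest relations. Its closest genes were Erg (0.14 to 0.23) and Fli1 (0.08 to 0.20), both ETS factors of HSCs, and Lmo2 (0.07 to 0.20), a bridging protein of the SCL complex. With Cbx6 these genes were higher on the weakest plate, Erg at 0.16 to 0.38, Fli1 at 0.14 to 0.31 and Lmo2 at 0.14 to 0.35. After the same removal the closest to Cbx7 were Erg (0.10 to 0.20), mettl7a1 (0.08 to 0.18) and Hlf (0.05 to 0.22).

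CDK6 and Myc stood on the opposite side for Ezh1 and Cbx6 once depth was removed. CDK6, a kinase of the G1 phase, had the lowest rho with Ezh1 (-0.17 to -0.06), followed by Cdkn2c, which encodes the inhibitor p18 (-0.19 to -0.03). With Cbx6 the lowest were the hexokinase gene Hk3 (-0.16 to -0.0083) and Myc (-0.25 to 0.01), and with Cbx7 they were Flt3 (-0.21 to 0.01) and Nfil3 (-0.14 to 0.02). With reference Ct and assay number removed, CDK6 was between -0.28 and -0.13 with Ezh1 and between -0.38 and -0.12 with Cbx6. Myc, a transcription factor of growth, was between -0.23 and -0.07 with Ezh1 and between -0.33 and -0.14 with Cbx6. This side of the removed scale was singled out after its values were seen. With Cbx6 it was not shared by proliferation genes as a set. Over 8 of them, CDK6 and Myc included, the median with Cbx6 was -0.09 and -0.07 on the 5-week plates, but 0.08 and 0.18 on the 2-week plates. With Ezh1 the median was below 0 on every plate, at -0.14 and -0.11 on the 5-week plates and -0.01 and -0.11 on the 2-week plates. Of the 8, 3 (CDK4, CDK6 and Myc) were below 0 on all 4 plates with Ezh1 and 0 were above. The inhibitor gene Cdkn2c was also below 0 on all 4 plates with both Ezh1 and Cbx6. On that scale Ezh1 and Cbx6 each had 18 of 80 assays above 0 on all 4 plates and 6 below, 22.5 and 7.5%, close to the 18.4 and 9.2% of all pairs, and Cbx7 had 11 above and 5 below.

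**Figure D5:**
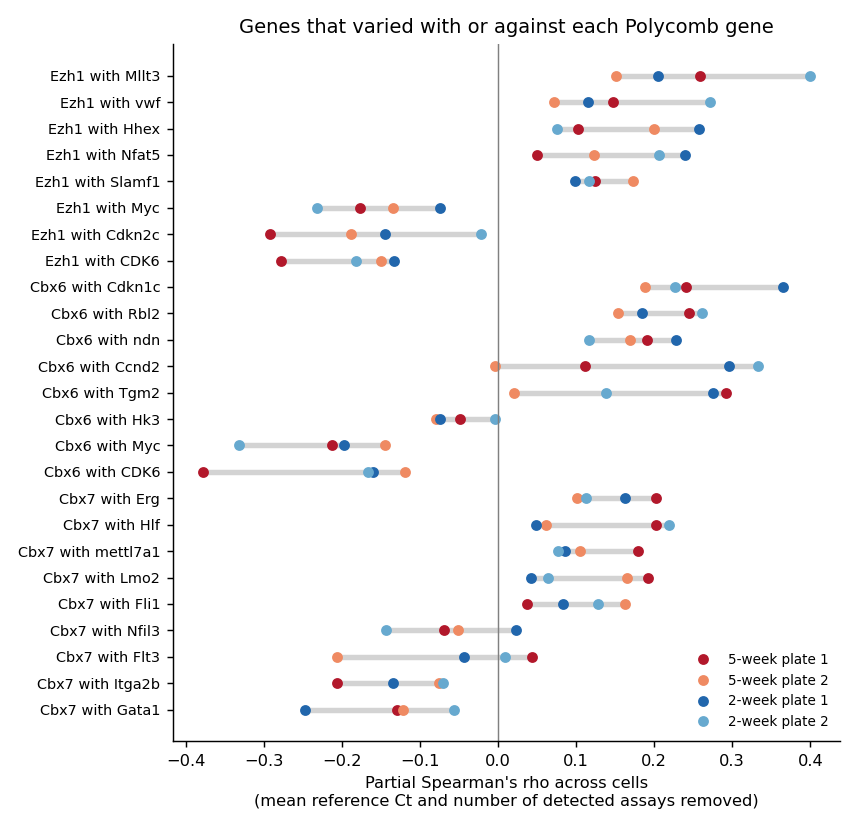
Partial Spearman's rho (reference Ct and number of detected assays removed) of each Polycomb gene with the genes named for it, 1 point per plate and a grey bar for the range. Mllt3 lies between 0.15 and 0.40 with Ezh1 and Cdkn1c between 0.19 and 0.36 with Cbx6, while Myc and CDK6 are below 0 on the 4 plates with both.

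Among other Polycomb genes and their known target loci, most had no assay here. Of 11 genes listed for Polycomb repressive complex 2, 1 was measured, and of 20 listed for Polycomb repressive complex 1, 2 were. Of 17 target loci 7 were measured, and 5 of these gave a product in any cell. Of the 5, 2 were apart upward in share, 1 downward and 2 overlapped. Of the 94 assays detected in any cell, 41 were apart upward, 7 downward and 46 overlapped, so the upward count of the 5 was near that of the table. The median difference was 5.80 points over the 5 and 3.14 over the 94. The higher ones were Cdkn1c (58% at 5 weeks and 50.3% at 2 weeks) and Nkx2.3 (71.3% at 5 weeks and 43.7% at 2 weeks, with a late median Ct of 20.6). The lower one was Cdkn1a, which encodes p21, at 2.87% at 5 weeks and 12% at 2 weeks. Plates overlapped for Cdkn2c (40.2% at 5 weeks, 34.4% at 2 weeks), and Ebf1 and Tcf15 were detected in 0 of 357 cells, which fixes their difference at 0.

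Cdkn2a gave no product in most cells, whether or not they had a Polycomb product. Its product occurred in 3 and 0 cells of the 5-week plates, against 7 and 3 cells of the 2-week plates, a share of 1.72% at 5 weeks and 5.46% at 2 weeks that overlapped between plates. The 13 products had a median Ct of 16.3. Of these 13 cells 8 had Ezh1 (61.5%, interval 31.6 to 86.1%), against 72.7% of the 344 cells without Cdkn2a. Likewise 7 had Cbx7 (53.8%, 25.1 to 80.8%), against 62.5%, and 11 had Cbx6 (84.6%, 54.6 to 98.1%), against 96.5%. All 3 shares were lower in the Cdkn2a cells and all 3 intervals held the share of the other cells, so no difference was detectable with 13 cells.

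The lists nearest in biology held no larger share of assays apart upward than the table as a whole, in which 42.7% of assays were apart upward and 7.29% downward (median 2.85 points). Of 14 inhibitors and quiescence genes 4 were apart upward, 2 downward and 8 overlapping (median 3.14 points), led by Cdkn1b, which encodes p27, at 88.5% at 5 weeks and 50.8% at 2 weeks. Of 9 proliferation genes 3 were higher, 0 lower and 6 overlapping (median 0.19 points), and of 12 HSC identity genes 4 were higher, 2 lower and 6 overlapping (median 2.28 points). Across cells, the median rho of Ezh1 with 11 HSC identity genes was 0.16 and 0.12 on the 5-week plates and 0.07 and 0.11 on the 2-week plates, against 0.13 and 0.05, and 0.07 and 0.05, with all 80 other assays. With 11 quiescence and inhibitor genes it was 0.12 and 0.05 on the 5-week plates and -0.02 and -0.00059 on the 2-week plates. With 8 proliferation genes it was 0.03 and -0.03 on the 5-week plates and 0.05 and -0.09 on the 2-week plates.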

How the data were processed

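Per the labels' protocols, single cells were lysed in plate wells, reverse transcribed, pre-amplified for 22 cycles with 96 pooled assays, diluted 5-fold and read with EvaGreen on a dynamic array for 30 cycles. The authors deposited non-normalized Ct values, treated here as a score, 1 per assay and cell, with 999 for no product. Neither the software nor the threshold is given in the sources used here. No product was recorded in 40.8% of 34272 reactions, and 60 products later than Ct 25 counted as undetected.

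All 357 cells were mapped by title and none was removed. Intervals of shares are exact (Clopper-Pearson, 95%) and hold counting error alone; the largest share that a count of 0 allows was set at 3 cells. Reference assays were the 14 whose share reached 95% on each of the plates. Levels needed 10 detecting cells on each plate (80 assays) and correlations a detection share of 10% on each plate (81 assays). Partial correlations used residuals of ranks and may keep part of a shared cDNA amount. Assay names were matched to RefSeq symbols of GRCm38.p6 (82 as printed, 13 in another case, 1 unmatched). Named genes were the 3 closest and 2 most opposed assays per member by weakest-plate correlation, the 3 closest by partial correlation, and listed Polycomb genes and targets. Members and lists were chosen with earlier results of these data known. Python 3.11.15, pandas 2.3.3, numpy 2.4.6 and scipy 1.17.1 were used, and the steps were tested on simulated data.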

Additional observations from a re-analysis of the deposited data

How the results depend on the processing

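Other Ct limits, weights, covariates and well filters left all 42 alternative share differences within the counting interval of the value reported. Leaving out a plate gave 7.59 to 13.1 points for Ezh1, -2.34 to 4.08 for Cbx6 and 0.32 to 13.3 for Cbx7. All 30 alternative ratios of co-detection stayed within their intervals. For the pairs with Cbx6 this was nearly fixed in advance, since few cells lacked Cbx6, so it says little about those pairs. Of 42 alternative level differences 27 moved by less than the spread between plates. Without centring the level differences were 0.27 (Ezh1), 0.74 (Cbx6) and 0.013 (Cbx7). With centring on Actb and Gapdh they were 0.14, 0.60 and -0.032. Over all cells, with undetected reactions at the limit, Ezh1 was at 0.67 and Cbx7 at 0.080, where the shares enter the level. Relative to the median over assays, Cbx6 was at 0.35 and Cbx7 at -0.29. At Ct 18 or below they were at 0.10 and -0.11, and at Ct 20 or below Cbx7 was at -0.12. Leaving out a plate gave -0.43 to -0.14 (Ezh1), 0.11 to 0.32 (Cbx6) and -0.50 to -0.35 (Cbx7). The cause was not tested. No paired analysis was possible because cells carry no shared replicate number and no test was made. A plate held 83 to 93 cells, so a count of 0 allows a share of up to 3.23 to 3.61%.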

Other observations

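Cbx7 and the erythroid and megakaryocytic genes Gata1 and Itga2b stood opposite each other in these cells, a pattern picked out after the values were seen. Gata1, a transcription factor of both lineages, was detected in 15.8% of the cells with Cbx7 and 28.3% of those without it at 5 weeks, and in 9.26% of those with and 14.7% of those without it at 2 weeks. Itga2b, which encodes the integrin CD41, was detected in 45.6% of cells with Cbx7 and 61.7% without it at 5 weeks, and in 38.9% with and 41.3% without it at 2 weeks. With reference Ct and assay number removed, rho lay between -0.25 and -0.06 for Gata1 and between -0.21 and -0.07 for Itga2b on the 4 plates. Before that removal both pairs were above 0 on 2-week plate 2, at 0.03 and 0.05. A rho below 0 on all 4 plates after the removal was found for 9.2% of all pairs.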
